A study of Caenorhabditis elegans with 2 samples.

Results

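Strong peaks of the tagged transcription factor ZTF-11 that lay at promoters on the X chromosome of *Caenorhabditis elegans* were described across replicates, genes and sequence. The peaks were chosen by the signal of the pooled peak list: of its 30000 peaks the 3000 with the highest signal were kept, 596 of these lay on X, and 179 of the 596 had the summit in a promoter window, taken as 1000 bp before to 200 bp after the annotated 5′ end of any protein-coding transcript. The other strong peaks were 417 on X away from promoters, 812 at autosomal promoters and 1592 elsewhere on the autosomes. The 179 peaks fell in the windows of 182 of the 2731 protein-coding genes of X, or 6.66%. Of the 179, 10 lay in the windows of 2 genes at once, and 7 genes had 2 such peaks, so the peaks are not independent samples of genes.

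The data were ChIP-seq peak lists, in which chromatin bound by a protein is recovered with an antibody and sequenced, from whole L4 larvae. There was 1 group with 2 biological replicates. Both replicates were of strain OP236, which carries the mutation unc-119(ed3) on chromosome III and the integrated array wgIs236 with an insertion targeting *ztf-11*, and the protein recovered was eGFP-ZTF-11. The labels give the animals as mixed sex, pooled male and female, and their age as unknown. What drives the transgene, whether the endogenous gene is intact, and which cells carry the protein are not stated in the sources used. Whole animals were pooled, so a peak cannot be assigned to a cell type, and many bound cells and strong binding in few cells cannot be told apart. Untagged or input controls were not analysed here, and nothing beyond the replicate number says that the cultures were separate. With 1 group and 2 replicates no test between conditions exists, so all values below are descriptions. Shares carry exact 95% Clopper-Pearson intervals, which treat peaks as independent and cover counting error only.

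ZTF-11 is the worm member of the Myt1 family of CCHC zinc finger proteins, which in vertebrates promote neuronal differentiation by repressing genes of other fates. In *C. elegans* it is known for a role in neurogenesis. Promoter proximal peaks are those from which direct regulation of a gene is usually sought, although many worm 5′ ends are annotated at trans-splice sites, so the start of transcription can lie further upstream. The X chromosome of hermaphrodites is bound by the dosage compensation complex, which is recruited at sites that carry a motif with the core GCGCAGG.

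The sequences around the summits of the 4 peaks that also stood in the authors' thresholded list are shown because they had the highest pooled signals of the 179. The peak at *mdt-1.2* is shown as one held by both replicates with a different motif. Each run is the plus strand of ce11 from the RefSeq genome of WBcel235, 201 bases centred on the summit, and capitals mark GCGCAGG or GAGAGAG on either strand. The *nspc-17* and *ins-39* genes lie on the minus strand and the other 3 on the plus strand.
*nspc-17*, chrX:14525808-14526008: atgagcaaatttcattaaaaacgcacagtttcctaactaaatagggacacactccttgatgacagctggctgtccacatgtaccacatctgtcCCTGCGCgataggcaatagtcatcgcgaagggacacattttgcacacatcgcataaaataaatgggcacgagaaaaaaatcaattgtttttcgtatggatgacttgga
*ins-39*, chrX:1344953-1345153: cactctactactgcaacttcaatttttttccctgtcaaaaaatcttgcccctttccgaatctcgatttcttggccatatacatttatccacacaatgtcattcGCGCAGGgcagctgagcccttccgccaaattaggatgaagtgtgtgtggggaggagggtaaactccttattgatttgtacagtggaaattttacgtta
*puf-9*, chrX:5841191-5841391: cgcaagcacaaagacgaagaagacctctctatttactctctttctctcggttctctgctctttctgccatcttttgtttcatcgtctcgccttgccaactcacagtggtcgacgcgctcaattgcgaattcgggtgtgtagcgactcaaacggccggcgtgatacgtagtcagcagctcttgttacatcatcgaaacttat
*ain-1*, chrX:16612380-16612580: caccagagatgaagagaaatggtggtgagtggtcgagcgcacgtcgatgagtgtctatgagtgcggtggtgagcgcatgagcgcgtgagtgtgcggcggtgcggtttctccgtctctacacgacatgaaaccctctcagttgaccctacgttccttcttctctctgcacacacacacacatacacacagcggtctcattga
*mdt-1.2*, chrX:17151263-17151463: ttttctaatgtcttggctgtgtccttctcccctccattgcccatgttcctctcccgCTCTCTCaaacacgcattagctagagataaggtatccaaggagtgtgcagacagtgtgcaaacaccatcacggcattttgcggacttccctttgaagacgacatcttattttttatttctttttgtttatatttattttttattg

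In these windows GCGCAGG was found at *nspc-17* on the minus strand, with its centre at -4 bp from the summit, and at *ins-39* on the plus strand, at 6 bp. The *puf-9* and *ain-1* windows held neither motif. GAGAGAG was found at *mdt-1.2* on the minus strand, at -41 bp. G and C made up 54.7% of the *ain-1* window.

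The replicate lists stood apart from each other, which touches every value that follows. Replicate 1 held 30000 peaks, whose deposited −log10 q values reached only 0.629, and replicate 2 held 22869 peaks, whose values ran from 2.58 to 3.57. By this column no replicate 1 peak passes a q of 0.05, and the sources used here do not say how the column was made in each list. Any overlap of at least 1 bp was counted as a shared peak. Of the 179 X promoter peaks, 140 (78.2%) overlapped a peak of replicate 1, 86 (48%) one of replicate 2 and 52 (29.1%) one of each. The other 5, at the tyramine receptor gene *tyra-2*, *lfi-1*, the Otx-type homeobox gene *ceh-37*, the Wnt receptor gene *lin-18* and *rbc-1*, overlapped none. All but *tyra-2* were picked by name once their values were known. Of all the strongest pooled peaks, 83.6% overlapped a peak of replicate 1, 45.1% one of replicate 2, 31% one of each and 2.4% none. The shares of the X promoter peaks were near these, so such overlap was not particular to X promoters.

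Few X promoter peaks were strong in both replicates. Among the 3000 strongest peaks of replicate 1 there was a partner for 77 of 179 (43%), where 40.1% of all 3000 strongest pooled peaks had one. Replicate 2 gave 42 of 179 (23.5%), where the figure for all strongest pooled peaks was 18%. A partner in both was found for 7 (3.91%, interval 1.59 to 7.89), where 3.37% of all had one, so X promoter peaks were near the background of the pooled list. The share was 5.42% at autosomal promoters and 3.36% on X away from promoters. Since the pooled list was made from these replicates, such shares are not independent support for any peak. Of the 77 peaks strong in replicate 1, 54 had no replicate 2 peak at all, and of the 42 strong in replicate 2, 21 had no replicate 1 peak. These were 30.2 and 11.7% of the 179, where the shares of all 3000 strongest pooled peaks were 29.7 and 7.8%. A further 67 of the 179 were strong in neither list, as were 1357 of all 3000.

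**Figure D1:**
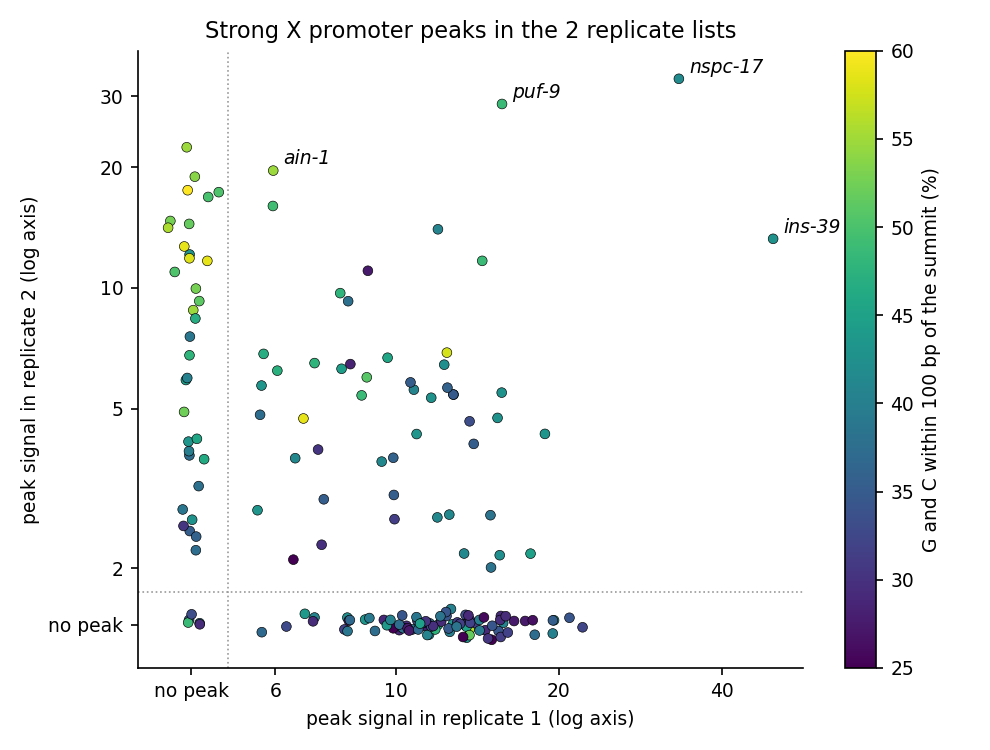
Signal of each of the 179 strong X promoter peaks in replicate 1 (horizontal, log axis) and replicate 2 (vertical, log axis), coloured by the G and C content within 100 bp of the summit; points beyond the dotted lines, spread for visibility, had no overlapping peak in that list, and the scales of the lists are not comparable. Most points lie in the "no peak" strips, and those in the strip for replicate 1 are mostly lighter, with more G and C, than those in the strip for replicate 2.

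The 7 peaks strong in both replicates were at *nspc-17*, *ins-39*, *puf-9*, C15H9.4, *act-4*, C14H10.3 and *mdt-1.2*. Signals are the authors' values, whose scale is not stated, and are compared only by rank within a list. At *nspc-17*, a gene of the nematode-specific peptide family group C, the peak at chrX:14525768-14526047 had a pooled signal of 61.3 and rank 5. It had a signal of 33.3 and rank 17 in replicate 1, and a signal of 33.2 in replicate 2, where it was the strongest of all peaks. The summit lay between genes, at -727 bp, where negative positions are upstream of the 5′ end. At *ins-39*, which encodes an insulin-like peptide, the peak at chrX:1344913-1345192 had a pooled signal of 59.5 and rank 6. Its signal was 49.8 in replicate 1 (rank 4) and 13.2 in replicate 2 (rank 94), with the summit at -632 bp. Both peptide gene peaks thus stood within the 100 strongest of each replicate.

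At *puf-9*, which encodes a Pumilio family RNA-binding protein that acts on messages of developmental timing genes, the peak at chrX:5841151-5841430 had a pooled signal of 39.2 (rank 16) and a summit at -301 bp. It ranked higher in replicate 2 (signal 28.7, rank 2) than in replicate 1 (signal 15.7, rank 387). The *ain-1* peak at chrX:16612340-16612619, with the summit at -971 bp, had a pooled signal of 30.1 (rank 33). *ain-1* encodes a GW182-type partner of the Argonaute ALG-1 in microRNA silencing. This peak was strong in replicate 2 alone: its signal was 19.6 there (rank 18) and 5.95 in replicate 1 (rank 26275). It was thresholded by the authors and yet lay in the weaker part of the replicate 1 list.

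The remaining peaks held by both replicates had lower pooled ranks. The *mdt-1.2* peak, at a gene for a Mediator subunit, had a pooled signal of 22.8, a replicate 1 signal of 12 (rank 2285) and a replicate 2 signal of 14 (rank 74). The peak in an intron of C14H10.3, annotated as a pyridoxal-dependent decarboxylase domain gene, had a pooled signal of 21.7 and replicate ranks of 1969 and 1921. The actin gene *act-4* had a pooled signal of 20.2 at -30 bp, with replicate signals of 12.4 (rank 1848) and 6.90 (rank 1476). At C15H9.4, which is annotated as a transmembrane and coiled-coil domain gene, the pooled signal was 15.9 and the summit lay in an intron at 169 bp. Its replicate signals were 14.5 (rank 738) and 11.7 (rank 158), so it ranked higher than *act-4* and C14H10.3 in each replicate list and lower than both in the pooled list.

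Below the leading peaks the pooled signal was flat. The median over the 179 was 13.1, 44 exceeded 15 and 12 exceeded 20, and 12 had a deposited −log10 q past a q of 0.05. The medians of X peaks away from promoters (13), autosomal promoter peaks (13.1) and other autosomal peaks (12.8) were close to it. The last peaks inside the 3000 were at the small heat shock protein gene *hsp-43* (signal 11.504, rank 2943), the predicted receptor gene *npr-38* (11.471, rank 2975) and C16B8.4 (11.463, rank 2991). The next X promoter peaks outside were at *daf-12*, the dafachronic acid receptor gene (11.442, rank 3019), at *ugt-46* together with B0310.6 (11.424, rank 3042) and at *yap-1*, a Hippo pathway gene (11.417, rank 3051). The last signal inside and the first outside differed only in the second decimal.

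Several of the 20 highest X promoter peaks were seen in 1 replicate. In replicate 2 alone there were peaks at the endoplasmic reticulum chaperone gene *hsp-3* (pooled signal 18.4, replicate 2 signal 17.5, rank 25), at the ADAM metalloprotease gene *adm-2* (20.2, 18.9, rank 20) and at *serp-1.1*, annotated as a stress-associated endoplasmic reticulum protein gene (19.6, 22.4, rank 13). Also with no replicate 1 peak was the summit shared by *snrp-40.1*, which encodes a U5 snRNP protein, and F08G12.3 (pooled signal 23.3, replicate 2 rank 61). The von Willebrand domain gene ZK1193.2 had a pooled signal of 24.4 and replicate 2 rank 30, again with no replicate 1 peak, and lay within 300 bp of a tRNA gene. In replicate 1 alone there were peaks at *vav-1* (pooled signal 21.8, replicate 1 signal 18.1, rank 147), at F53B1.8 (19.5, 15.8, rank 370) and at ZK816.1 (18.6, 19.6, rank 78). The translation elongation factor gene *eef-1A.2* (pooled signal 20.5), the NF-Y subunit gene *nfya-1* (19.4), the nuclear receptor gene *nhr-14* (18.9), *gei-3* (19.5) and the summit shared by *stau-1* and *sec-22* (18.6) had a peak in each, but only 1 of the pair was among the 3000 strongest. Of the 10 summits in the windows of 2 genes, the strongest after those at *snrp-40.1*, *stau-1* and C28G1.2 was shared by the cell cycle kinase gene *cdk-4* and F18H3.1 (pooled signal 12.4).

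Base composition differed between the peaks of the replicates. Within 100 bp of the summit G and C made up a median of 38.8% over the 179 peaks (quartiles 32.8 and 44, range 22.4 to 62.2). Windows of the same length centred at -301 bp, the median summit position, at all 2731 X genes had a median of 34.3% (quartiles 29.9 and 39.3), and the whole X chromosome has 35.2%. The 70 peaks strong only in replicate 1 had a median of 35.3% (quartiles 31.3 and 41.3), close to these. The 35 strong only in replicate 2 had a median of 49.3% (quartiles 44.3 and 53.2), the 7 strong in both 42.8%, and the 67 strong in neither 37.3%. The lower quartile of the replicate 2 group lay above the upper quartile of the replicate 1 group.

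**Figure D2:**
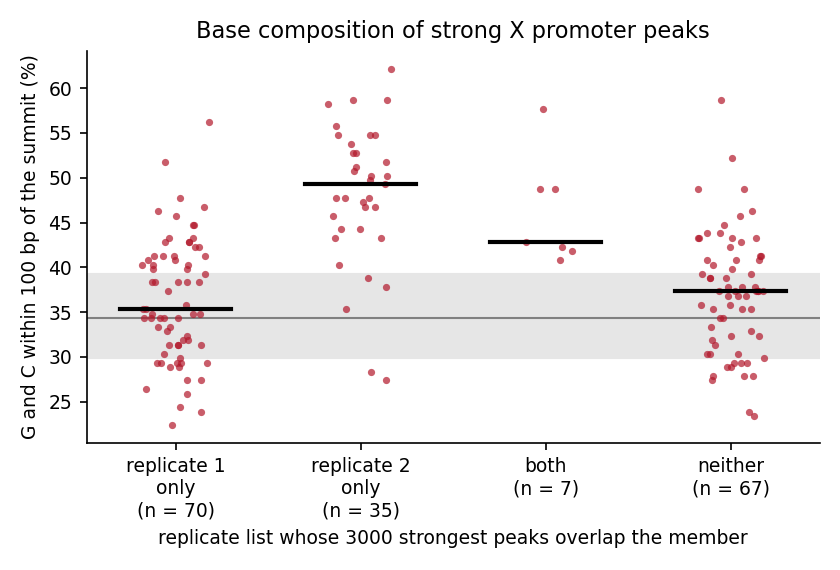
G and C content (%) within 100 bp of the summit for the 179 strong X promoter peaks, split by the replicate list whose 3000 strongest peaks overlap them; points are peaks, black bars medians, and the grey line and band the median and quartiles of windows at all X protein-coding genes. The bar for replicate 2 only stands at 49.3% and that for replicate 1 only at 35.3%.

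The same split was present in all 3000 strongest pooled peaks, with medians of 35.3% for 1103 peaks strong only in replicate 1 and 46.3% for 439 strong only in replicate 2, so it was not limited to X promoters. Taken from each replicate's own 3000 strongest peaks, X promoters held 151 peaks with a median of 34.8% in replicate 1 and 198 with a median of 47.8% in replicate 2. Some genes with 2 peaks showed the split between them. At *zfp-3*, a C3H1 zinc finger gene, the peak at -755 bp (pooled signal 15.3, 29.4% G and C) had a partner only in replicate 1 (rank 4610). The *zfp-3* peak at -339 bp from another 5′ end (11.8, 55.7%) had a partner only in replicate 2 (rank 71). At *pqn-39*, the peak at -135 bp (27.4%) had replicate 1 rank 271 and the peak at -947 bp (44.3%) had replicate 2 rank 2611, with no partner in the other list. At *nhr-48* and *ajm-1* the content was 42.3 and 31.8% and 35.3 and 40.3%, and all 4 peaks had a replicate 1 partner. What sets the difference in composition was not tested.

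Few of these peaks held sequence with copies elsewhere in the genome, though most held some bases masked as repeats. The share of bases masked as repeats in the reference had a median of 20.7%, against 22.9% over all 3000. Of the 179, 167 (93.3%) held some masked bases and 9 (5.03%) exceeded 50%, against 91.6 and 10.5% of all 3000. In 170 of the 179 peaks (95%) no 31-base word occurred elsewhere in the genome, near the 92.3% of all 3000. The highest share of words with copies elsewhere was 24.4%, at the summit shared by the serpin gene C28G1.2 and the exocyst gene *sec-15* beside a tRNA gene. Within 300 bp of a tRNA or other small structural RNA or microRNA gene there were 11 peaks (6.15%), against 3.37% of all 3000. Besides ZK1193.2 and C28G1.2 the strongest were at *sor-3* (pooled signal 14.9), C03F11.4 (12.9) and C28G1.10 (12.6).

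Most summits lay upstream of the 5′ end, as does most of the promoter window. The median summit position was -301 bp (quartiles -622 and -64). Of the 179, 150 (83.8%) were upstream, and 33 (18.4%) were within 100 bp of the 5′ end on either side. Autosomal promoter peaks lay nearer, with a median of -211 bp and 28.2% within 100 bp. The summit was between genes for 109 X promoter peaks (60.9%, interval 53.3 to 68.1) and for 48.9% of the autosomal ones (interval 45.4 to 52.4). Of the rest of the X promoter peaks, 35 lay in exons and 35 in introns. Strong peaks away from promoters also lay between genes more often on X (44.1%) than on the autosomes (26.5%), so this was not limited to promoter peaks. The position is bounded by the window of 1000 bp before and 200 bp after the 5′ end. Summits spread evenly over it would also lie mostly upstream, so the upstream share shows no preference. No test of the differences between X and the autosomes was made.

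**Figure D3:**
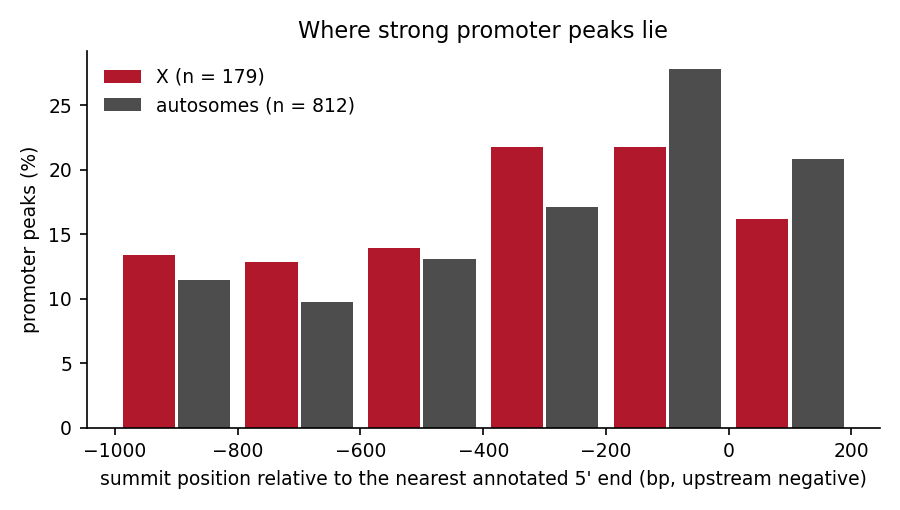
Share (%) of strong promoter peaks by summit position relative to the nearest annotated 5′ end, in 200 bp steps with upstream negative, for 179 peaks on X (red) and 812 on autosomes (grey). The autosomal peaks are concentrated in the step just upstream of the 5′ end and the one downstream of it, whereas the X peaks are more evenly spread upstream.

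Over the 3000 strongest peaks, the share at promoters relative to the space promoters take up was not lower on X than on the autosomes, whereas among the 47 strongest peaks the plain share was lower on X. On X 30% of strong peaks lay at promoters (interval 26.4 to 33.9), against 33.8% on the autosomes together (31.9 to 35.7), and the single autosomes ranged from 31.7% on III to 35.6% on II. The promoter windows cover 21.8% of X and 27.1% of the autosomes. The ratio of the share of peaks to the share of bases was 1.38 on X and ran from 1.16 on V to 1.35 on I. Per 1000 protein-coding genes there were 65.5 strong promoter peaks on X and 37.6 to 57.6 on the autosomes. Among the peaks ranked 1 to 47 the X share was 20% (4 of 20) and the autosomal 74.1%, from rank 48 to 300 they were 39.3 and 44.2%, and from rank 2001 to 3000 they were 30.3 and 31.3%. The gap was widest in the first of these bins, where the interval ran from 5.73 to 43.7% on X and from 53.7 to 88.9% on the autosomes, without overlap. Along X, equal sixths held 25, 30, 41, 31, 29 and 23 of the peaks, or 5.71 to 7.98 per 100 genes. Neighbouring summits were a median of 68361 bp apart, and 5 gaps were under 2000 bp.

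**Figure D4:**
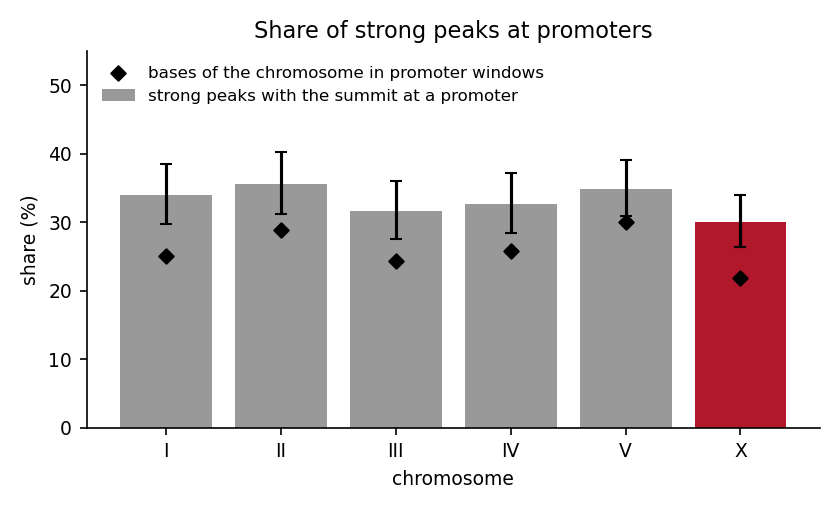
Share (%) of the strong pooled peaks of each chromosome whose summit lies at a promoter (bars, with exact 95% intervals) and share of the chromosome's bases in promoter windows (diamonds). X, in red, has the lowest bar (30%) and the lowest diamond (21.8%).

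Transcription factor genes, the largest list, gave the most members, and the small list of heterochronic and microRNA pathway genes gave the highest share. The lists were chosen with earlier results of these data known, so their shares are not independent of the peaks. Groups were gene lists defined by symbol, read here only as counts beside the 6.66% of all X protein-coding genes. Of 7 X-linked heterochronic and microRNA pathway genes, 4 (57.1%, interval 18.4 to 90.1) had a strong promoter peak: *lin-14*, *hbl-1*, *puf-9* and *ain-1*. The promoter windows of these 7 genes cover a median of 2402 bp, against 1201 bp over all X genes, which gives them more room for a summit. *lin-14* encodes the transcription factor that sets early larval fates and is silenced by the microRNA lin-4. Its peak in an intron at -177 bp had a pooled signal of 16.1, a replicate 1 signal of 12 (rank 2288) and no replicate 2 peak. *hbl-1* encodes a Hunchback-like factor that is a target of let-7 family microRNAs. Its peak at -257 bp had a pooled signal of 14.7, a replicate 1 signal of 15 (rank 573) and a replicate 2 signal of 2.01 (rank 22735), near the end of that list. Ranked by each replicate alone, the list had 57.1% in replicate 1 and 28.6% in replicate 2, where 5.6 and 7.51% of all X protein-coding genes had a strong promoter peak.

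Of 96 X-linked transcription factor genes 16 (16.7%, interval 9.84 to 25.7) had a strong promoter peak. They included *nfya-1*, *nhr-14*, the POU homeobox gene *ceh-18* (pooled signal 15.9, replicate 1 rank 402, no replicate 2 peak) and *lin-14*. Ranked by replicate 1 alone the share was 6.25%, and by replicate 2 alone 11.5%, beside the 5.6 and 7.51% of all X genes in those lists. The remaining 12 comprised *hbl-1*, *ceh-37*, *fkh-9*, *hlh-8*, *ldb-1*, *mdl-1*, *nhr-40*, *nhr-48*, *sma-9*, *sox-2*, *ets-4* and *ets-9*, most of which were named after their values were seen. Among these are *hlh-8*, the Twist gene of the mesoderm (pooled signal 14.2), the Schnurri-like gene *sma-9* (14.3) and *sox-2* (12.1).

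Genes of neurons and signalling had shares from below to slightly above that of all X genes. Of 49 genes for peptide, amine and acetylcholine receptors 5 (10.2%) had a peak, led by *gnrr-6* (pooled signal 15.5, replicate 1 rank 54, no replicate 2 peak) and *tyra-2* (14.3, no peak in either). *npr-10* followed with 13.1 and *frpr-17* with 12.4. The *gnrr-6* summit, at -854 bp, lay in an intron of another gene, F13D2.1. Of 69 ion channel and gap junction genes 6 (8.70%) had one, led by the voltage-gated calcium channel gene *unc-2* (17.2, replicate 1 rank 440, no replicate 2 peak), the degenerin-like gene *acd-3* (14.4), the innexin gene *inx-3* (13.7) and *glr-8*, whose window shares its peak with the zinc transporter gene *cdf-1* (12.3). G protein and second messenger genes gave 3 of 31 (9.68%): the kinase gene *kin-29* (14.4), the guanylate cyclase gene *gcy-31* (12) and *kin-2*, for the regulatory subunit of protein kinase A (11.9). Axon guidance, adhesion and basement membrane genes gave 3 of 40 (7.5%): the secreted immunoglobulin genes *zig-6* (13.1) and *zig-4* (12.8) and the laminin gene *lam-2* (12.1). Neuropeptide and insulin-like genes gave 2 of 37 (5.41%), *ins-39* and *nlp-19* (12.6). Of 11 synaptic vesicle and axonal transport genes none had one, for which the exact interval reaches 28.5%.

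Other lists held few members. Of 6 ribosomal protein and translation factor genes on X 2 had a peak, *eef-1A.2* and the poly(A) binding protein gene *pab-2* (11.8). Chaperones gave 2 of 8, *hsp-3* and *hsp-43*, RNA-binding proteins 1 of 5, *puf-9*, and muscle genes 1 of 20, *act-4*. Vitellogenin and intestinal genes gave 3 of 53 (5.66%), the aspartic protease gene *asp-3* (14.4) and the saposin-like genes *spp-22* (13.3) and *spp-14* (12.1). The nspc family gave 1 of 18 and the chemoreceptors 1 of 34, *srd-44* (12.3). The *srd-44* summit, at -730 bp, lay in an exon of *srd-48* and within 300 bp of a tRNA gene. None of 61 collagen and cuticle genes had a peak, for which the exact interval reaches 5.87%, none of 7 sex determination and dosage compensation genes, for which it reaches 41%, and neither of 2 germline genes. For collagens each replicate ranked alone gave 4.92%, again beside 5.6 and 7.51% of all X genes, so the pooled count of 0 was not shared by the replicates.

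**Figure D5:**
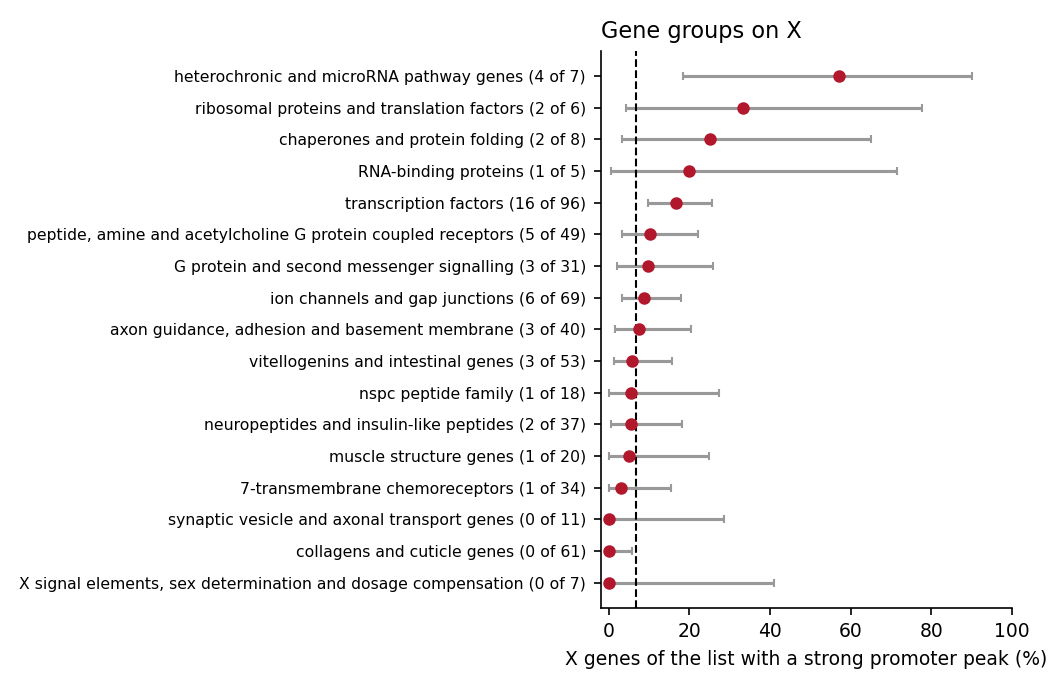
Share (%) of the X-linked protein-coding genes of each list with a strong promoter peak (points, with exact 95% intervals; counts in brackets), for lists of at least 5 genes. The dashed line marks the 6.66% of all X protein-coding genes. The intervals of the heterochronic list, the transcription factors and the collagens do not cross it. This is no test, as the lists are many and were chosen with earlier results known. Ranked by replicate 1 and 2 alone, transcription factors gave 6.25 and 11.5% and collagens 4.92% in each, beside 5.6 and 7.51% of all X genes.

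Of the motifs searched on both strands within 100 bp of the summit, GAGAGAG was found in 22 of the 179 peaks (12.3%, interval 7.87 to 18) and in 4.43% of the windows of like length at all X genes. X peaks away from promoters held it in 3.60% and autosomal promoter peaks in 6.65%. The count leaned to replicate 2: the motif was in 10 of 35 peaks strong only there (28.6%) and in 5 of 70 strong only in replicate 1 (7.14%). The shares were 18.9 and 5.32% at autosomal promoters and 8.96 and 1.38% on X away from promoters. Over all 3000 strongest pooled peaks they were 14.1 and 3.9%, so the lean was not limited to X promoters. The motif was in 20.2% of the 198 X promoter peaks of the replicate 2 list ranked alone, and in 4.64% of the 151 of replicate 1, close to the windows at all X genes. In the replicate 2 list it was also in 13.9% of autosomal promoter peaks and 10.4% of all 3000 strongest. GAGAGAG stood at *mdt-1.2*, *eef-1A.2*, *adm-2* and *kin-29*, among others. As G and C content also differed between these groups, the part that composition plays in the counts was not tested.

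GCGCAGG was found in 3 of the 179 (1.68%, interval 0.347 to 4.82), where 0.476% of the X gene windows and 3.36% of the X peaks away from promoters held it. The 3 were *nspc-17*, *ins-39* and *mdl-1*, whose peak at 8 bp had a pooled signal of 14.7, replicate 2 rank 117 and no replicate 1 peak. Within the authors' thresholded list it was in 2 of the 4 X promoter peaks, in 10 of the 16 X peaks away from promoters and in none of the 27 autosomal peaks, which held GAGAGAG in 4.

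In the pooled list the motifs reported for Myt1 family proteins were not more frequent than at X genes in general, but the replicates differed. AAAGTTT was found in 21 peaks (11.7%), against 16% of the windows at all X genes, and the shorter AAGTT, which every AAAGTTT contains, in 84 (46.9%), against 57.3%. X peaks away from promoters held AAAGTTT in 14.4% and AAGTT in 54%. TATAAA was found in 43 peaks (24%), against 23.9%. AAGTT was in 6 of 35 peaks strong only in replicate 2 and in 40 of 70 strong only in replicate 1, and TATAAA in 4 of 35 and 24 of 70. Over all 3000 strongest pooled peaks such shares were 33.7 and 55.7% for AAGTT and 10.5 and 24% for TATAAA. These leans were thus not limited to X promoters. AAAGTTT was in 2 of 35 and 6 of 70, and was most frequent in the peaks strong in neither, with 13 of 67. Ranked by replicate 1 alone, its 151 X promoter peaks held AAGTT in 70.2%, above the windows at all X genes, and AAAGTTT in 14.6%. The 198 of replicate 2 ranked alone held them in 22.7 and 1.52%. Over all 3000 strongest peaks of replicates 1 and 2, AAGTT was in 59.4 and 37.3%. TATAAA was in 3 of the 7 peaks strong in both. The part that G and C content plays in these counts was not tested. A match says that these letters stand in the window and nothing of what binds there.

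Some promoter peaks belonged to genes with stronger peaks inside them. Of the genes with an X promoter peak, 23 held 27 other strong peaks in their bodies, of which 2 were in the thresholded list. Of the 417 strong X peaks away from promoters, 124 lay in exons and 109 in introns. The share of all X genes with a strong body peak was not counted. The count of 23 therefore cannot show whether promoter and body peaks go together. The genes below were picked once their values were known. In *mom-1*, which encodes the Porcupine protein of Wnt secretion, an intronic peak at chrX:6296390-6296669 had a pooled signal of 68.7, while the promoter peak that *mom-1* shares with *lev-9* had 12. In *ldb-1*, for a LIM domain binding protein, the intronic peak at chrX:11031144-11031423 had 30.4 and the promoter peak 11.7. *lin-14* held 3 further strong peaks with signals of 17.9, 14.3 and 12.2, against 16.1 at its promoter. For *puf-9* and *ain-1* the order was the other way round, with 13.5 and 13.1 in exons against 39.2 and 30.1 at the promoters.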

How the data were processed

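ChIP-seq peak lists for eGFP-ZTF-11 in L4 larvae were analysed, 2 biological replicates of 1 group, numbered as in the labels. Per the deposited descriptions, the authors called relaxed peaks for each replicate and for both pooled, and derived an IDR-thresholded list from these. Which peak caller and aligner they used is not given in the sources used here. For each peak the authors deposited a signal value of unstated scale, used only to rank and describe peaks within a list, and the −log10 of a q value. The p column held a placeholder. Depth is unknown, since no list gives reads. All summits of the pooled list are the peak centre.

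The X promoter peaks were selected on pooled signal, so that signal is no finding. Promoter windows took 1000 bp before and 200 bp after the 5′ ends in Ensembl release 115 (WBcel235, the coordinates of ce11). Positions count from 1. Sequences were read from RefSeq's genome of that build. The ce10 pooled list served for a count alone. Peaks were matched at 1 bp of overlap. Motifs and base composition were read within 100 bp of summits. Copies were searched with words of 31 bases. Intervals are exact binomial intervals at 95%. No test was made: 1 group gives no contrast, and peaks of 1 chromosome are not replicates.

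Genes were named by a rule: members in the thresholded list, the 20 highest signals, peaks strong in both replicates, up to 4 per gene list, the 3 on each side of the limit, and the 5 strongest shared by 2 genes, near small RNA genes, or at genes with 2 peaks. The peaks, lists and rules were chosen with earlier results of these data known. Alternatives were other ranks, windows, rank limits, overlap rules, motif distances, the ce10 list and each replicate alone. One peak is not reported here. The functions were checked on simulated data. Work was done in Python 3.11.15 with pandas 2.3.3, numpy 2.4.6 and scipy 1.17.1, and figures with matplotlib 3.10.9.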

Additional observations from a re-analysis of the deposited data

How the results depend on the processing

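The number of X promoter peaks was 69 and 272 with the 1000 and 5000 strongest pooled peaks, and 107 and 276 with windows of 500 and 100 bp or 2000 and 500 bp. With these windows the share of strong X peaks at promoters was 18 and 46.3%, and the median position -212 and -473 bp. These values move by construction, as each setting admits other peaks. The share with a strong peak in replicate 1 was 59.4% and 33.8% for the 1000 and 5000 strongest, 20.1% with a rank limit of 1000 and 78.2% with the whole list. In replicate 2 it was 36.2% for the 1000 strongest, 15.1% with the rank limit of 1000 and 48% with the whole list, and in both replicates 10.1% for the 1000 strongest and 29.1% with the whole lists. Within 50 and 250 bp of the summit AAAGTTT was in 5.59 and 33.5%, AAGTT in 24.6 and 81.0%, GAGAGAG in 6.15 and 18.4% and TATAAA in 11.7 and 44.1%. With the window of 500 and 100 bp the shares were 0% for chemoreceptors, 2.90% for ion channels, 0% for the nspc family and 2.04% for peptide and amine receptors.

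Ranked by each replicate alone there were 151 to 198 X promoter peaks, 27.2 to 32.9% of strong X peaks, with median positions from -358 to -257 bp and G and C from 34.8 to 47.8%. GAGAGAG ranged from 4.64 to 20.2%, GCGCAGG from 1.32 to 2.53%, transcription factors from 6.25 to 11.5%, heterochronic genes from 28.6 to 57.1%, and collagens were at 4.92% in both. The values for motifs and lists by single replicate were chosen after seeing the data. The causes of these ranges were not tested. Over the alternatives run, 57 values were counted as staying and 32 as moving. Shares were judged by their interval and numbers of peaks by a factor of 1.5. The medians were not judged by their quartiles. The G and C median of 47.8% lay above the upper quartile of 44% and was counted as staying. Positions of -212 and -473 bp lay between the quartiles of -622 and -64 bp and were counted as moving. No paired analysis was possible because there is 1 group. Unknown depth, unstated signal scale, the replicate 1 q column and controls not analysed here limit every value.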
